A study of Zea mays with 16 samples.

Results

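The genes described here are 168 cell wall and expansin genes of maize, followed in guard cells and subsidiary cells of the leaf by day and by night. They were chosen by the first word of the description that the authors' table gives each gene. The 9 words, with case ignored, were Expansin, Alpha-expansin, Beta-expansin, Cellulose, Xyloglucan, Pectin, Pectate, Polygalacturonase and Endoglucanase. A gene also had to reach a normalised count of at least 10 in at least 4 of the 16 libraries. Of 38179 listed genes, 37759 passed that minimum and were tested. Of the genes with one of the words, 168 passed and 1 did not. The words rest on no measured value, but they were chosen with earlier results of these data known. Most descriptions hold only the first word, so the exact enzyme is often not given. An inhibitor or a synthase-like gene can share a word with an enzyme.

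Plant cells grow and change shape by loosening a wall of cellulose fibrils held in a matrix of hemicelluloses and pectins. Expansins loosen the contacts between cellulose and the matrix without cutting them, cellulose synthases make the fibrils, xyloglucan endotransglucosylases cut and rejoin the hemicellulose xyloglucan, and endoglucanases cut glucan chains. Pectinesterases remove methyl groups from pectin, which lets it stiffen with calcium or be cut by pectate lyases and polygalacturonases. Grass walls hold less pectin and xyloglucan than those of most other flowering plants, and beta-expansins form a large family in grasses. The walls of guard cells must stretch and recoil each time the stomatal pore opens and closes, and in grasses the dumbbell-shaped guard cells are flanked by subsidiary cells that swell and shrink in the opposite sense.

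Cells came from epidermal strips of leaf 3 of maize seedlings of the inbred line B104 aged 2 weeks, without any other genotype or treatment, in 4 groups of 4 libraries. These were daytime guard cells, night-time guard cells, daytime subsidiary cells and night-time subsidiary cells. Day was 2 h after the lights came on and night 2 h after they went off. Light lasted 16 h at 25 °C and darkness 8 h at 22 °C, so the hour, the light and the temperature differ together between day and night. Each library pools cells cut out with a laser, about 1500 to a tube and 2 tubes to a sample, and the trace of RNA was amplified before sequencing. The 4 libraries of a group come from independent collections, and the labels do not say how many plants each holds. A normalised count is the number of reads of a gene divided by 1 size factor per library, and a library's total of reads is shared among all its genes, so in these bulk samples fewer cells of a type and less RNA per cell cannot be told apart. Counts also scale with transcript length, which is not used here, so shares and rankings of genes by count are of reads and say nothing of levels per length.

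Libraries held 16.6 to 28.9 M reads (median 22.2 M), and 162 to 167 of the 168 wall genes had a value above 0 in each. Replicate 4 of night-time guard cells and replicate 1 of daytime subsidiary cells stood apart, with mean rank correlations with the other 15 libraries of 0.642 and 0.669, against 0.707 to 0.758 in the rest. Replicate 4 of night-time guard cells was the lowest of all libraries for 24 of the 168 wall genes (14.3%) and for 8.96% of all genes tested. The description words used here held no marker that defines guard cells or subsidiary cells, so the labelled cell types were checked only against other words. Genes of chlorophyll-binding and photosystem proteins, 55 in all with 39 above 0 in every library, summed to 79339 to 124633 normalised counts in daytime guard cells and 20067 to 87771 in daytime subsidiary cells. By night they summed to 4622 to 27748 in guard cells and 15194 to 19625 in subsidiary cells. Words that open names of mesophyll enzymes were Carbonic and Phosphoenolpyruvate, with 6 genes, all above 0 in every library. These 6 genes summed to 5738 to 10634 in daytime guard cells and 1258 to 3753 in night-time guard cells. In subsidiary cells they summed to 1064 to 7348 by day and 2404 to 3648 by night. Words that open names of bundle sheath enzymes were Ribulose and NADP-dependent, with 5 genes, 3 of them above 0 in every library. These 5 genes summed to 9471 to 29067 in daytime guard cells and 1407 to 14349 in night-time guard cells. In subsidiary cells they summed to 1057 to 12986 by day and 1607 to 3630 by night. Words that open names of cuticle wax synthesis proteins, an activity of epidermal cells, were 3-ketoacyl-CoA and CER. They counted 29 genes, with 26 above 0 in every library. These 29 genes summed to 8802 to 15037 in daytime guard cells and 4328 to 12058 in night-time guard cells. In subsidiary cells they summed to 13152 to 33764 by day and 13380 to 16569 by night. All these words were matched at the start of the description with case ignored. Genes of other functions can share them, so no sum is a clean marker of a cell type. These marker sums move with cell type and time, and their part in the results below was not tested.

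The 168 genes fall into 3 alpha-expansins, 10 beta-expansins, 3 other expansins, 15 Cellulose genes, 32 Xyloglucan genes, 22 Endoglucanase genes, 49 Pectinesterase genes, 16 genes with another word starting with Pectin, 12 Pectate genes and 6 Polygalacturonase genes. Classes go by the first word alone, and 2 of the 3 other expansins, Zm00001d047146 (Expansin-B1) and Zm00001d017733 (Expansin-B10), carry names of the beta-expansin family. All 15 Cellulose genes reached 10 normalised counts in every library, as did 127 of the 168, while none of the 3 other expansins did. The 1 gene left out, Zm00001d047147 (Expansin-B1), reached 10 in 3 libraries. It had 108 normalised counts in guard night replicate 1, 58.2 in subsidiary day replicate 4 and 36.9 in subsidiary night replicate 2. Just inside the minimum lay Zm00001d047146, also described as Expansin-B1 and as a pollen protein, with 124 in guard night replicate 1, 48.5 and 67.5 in subsidiary day replicates 3 and 4, and 66.2 in subsidiary night replicate 3. Both genes were at or near 0 in daytime guard cells. Their identifiers are neighbours and their descriptions alike, and whether reads were split between them was not tested.

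A pair of genes with pectin-related words held most of the wall gene reads in the median library. The Pectinesterase gene Zm00001d009899 had 69179, 125611, 63754 and 66982 normalised counts in daytime guard cells and 51643, 66019, 145745 and 5604 in night-time guard cells. The subsidiary cell values were 82751, 159865, 98554 and 159315 by day and 65658, 70474, 86753 and 60534 by night. The groups overlap, and the 1 low value is guard night replicate 4. This gene made up 45.3% to 91.7% (median 85.2%) of the Pectinesterase counts of a library. The Polygalacturonase gene Zm00001d034990 had 24683, 17648, 22984 and 15459 in daytime guard cells and 24689.9, 28772, 17015 and 1678 in night-time guard cells. In subsidiary cells it had 15629, 33863, 47787 and 41711 by day and 20949.9, 25039, 29807 and 62482 by night. Its mean was lower in guard cells than in subsidiary cells at both times, but the groups overlap, and the fold change averaged over day and night, -1.04 ± 0.50 (SE), did not pass the test (limma, Benjamini-Hochberg adjusted p = 0.369). Without guard night replicate 4 it was -0.57 (adjusted p = 0.391). Together these genes held 19.6% to 79.6% (median 67.0%) of all wall gene counts, so sums over the 168 genes mostly follow them. Without the pair, the other 166 wall genes summed to 56768 ± 5045 normalised counts in daytime guard cells (SD, n = 4), 42876 ± 8867 in night-time guard cells, 57182 ± 9238 in daytime subsidiary cells and 48311 ± 4454 in night-time subsidiary cells.

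**Figure D1:**
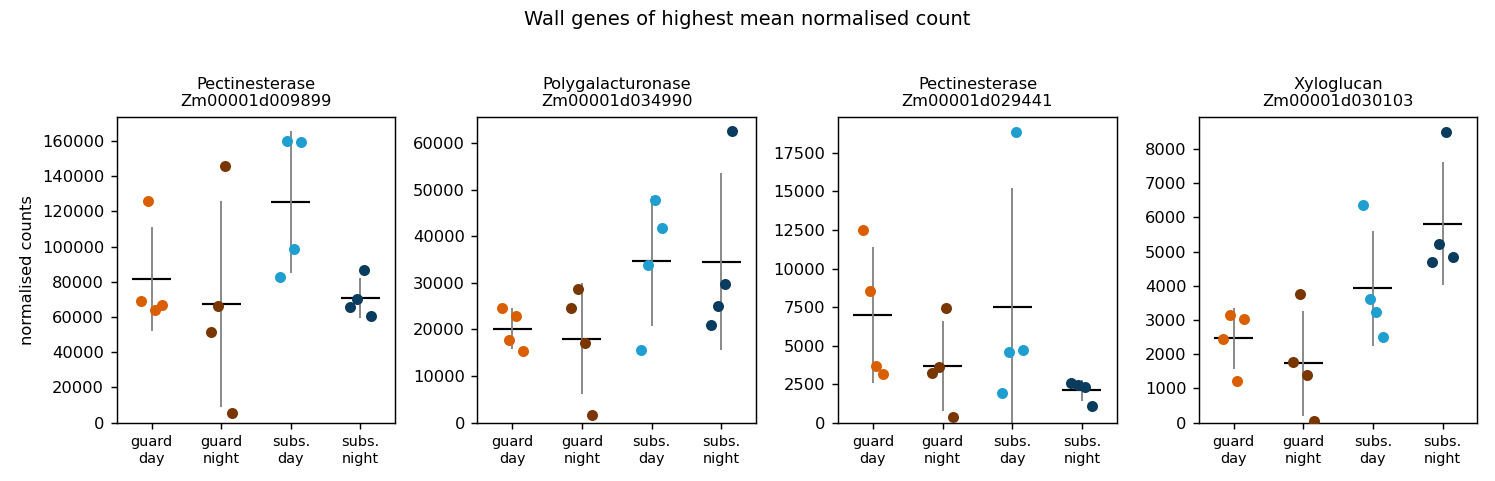
Normalised counts (y axis, linear, starting at 0) of the 4 wall genes of highest mean count in daytime guard cells, night-time guard cells, daytime subsidiary cells and night-time subsidiary cells. Each point is 1 library, the bar is the mean and the line the SD of 4 libraries; guard night replicate 4 is the lowest point of its group in all 4 plots, at 5604, 1678, 348 and 43.8.

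The Pectinesterase gene Zm00001d029441 had 12482, 8535, 3708 and 3131 normalised counts in daytime guard cells and 3213, 3622, 7464 and 348 in night-time guard cells, against 1908, 4587, 18873 and 4738 in daytime subsidiary cells and 2603, 2448, 2286 and 1090.2 in night-time subsidiary cells. Its highest value and its lowest value come from different cell types, and its day minus night fold change of 1.37 ± 0.55, averaged over cell types, did not pass (adjusted p = 0.250), and was 0.91 (adjusted p = 0.326) without guard night replicate 4. The most abundant Xyloglucan gene by counts, Zm00001d030103, had 2450.4, 3146, 1216 and 3038 in daytime guard cells and 1760.3, 3745, 1406 and 43.8 in night-time guard cells, against 6355, 3623, 3238 and 2492 in daytime subsidiary cells and 4698, 5223, 8501 and 4846 in night-time subsidiary cells. By night all 4 guard cell libraries lay below all 4 subsidiary cell libraries, with a fold change of -2.81 ± 0.88 and an adjusted p of 0.270. Without guard night replicate 4 the fold change was -1.42 (adjusted p = 0.209).

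The first comparison asked how wall gene expression differs between guard cells and subsidiary cells, averaged over day and night. A fold change here is a difference of mean log2(normalised count + 1), guard minus subsidiary, and a gene was called at a Benjamini-Hochberg adjusted p under 0.05 over all genes tested in a limma fit of the 16 libraries. Of the 168 wall genes 3 were higher and 2 lower in guard cells, which is 2.98% of them, against 2.4% of all genes tested (1.34% higher and 1.06% lower). The 3 higher genes carry the words Pectate, Polygalacturonase and Pectinesterase, and the 2 lower genes Cellulose and Xyloglucan. The median fold change was 0.04 over the 168 genes and 0.00 over all genes, and 88 of the 168 were positive.

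The Pectate gene Zm00001d036158, whose word opens the names of the lyases that cut demethylated pectin, had 1217, 848, 1408 and 1486 normalised counts in daytime guard cells and 138, 415, 665 and 124 in night-time guard cells. The subsidiary cell values were 205, 461, 420.3 and 364 by day and 118, 52.7, 75 and 69.1 by night. Every guard cell library lay above every subsidiary cell library of the same time. The fold change was 1.79 ± 0.36 (SE; adjusted p = 0.00949), and it stayed called without any 1 of the 16 libraries.

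The Polygalacturonase gene Zm00001d036818, whose word names enzymes that cut the pectin backbone, had 374, 455, 221 and 262 normalised counts in daytime guard cells and 585, 734, 907 and 189.6 in night-time guard cells. In subsidiary cells it had 187, 97.9, 128 and 116 by day and 199, 56.3, 135 and 139 by night. By day guard cells lay above subsidiary cells with no overlap, and by night only guard night replicate 4 fell within the subsidiary range. The fold change was 1.70 ± 0.37 (adjusted p = 0.0169), called without any 1 of the 16 libraries. The Pectinesterase gene Zm00001d010793 had 429.9, 211, 1250.3 and 849 in daytime guard cells and 234, 216, 474 and 379 in night-time guard cells, against 57.8, 216, 308 and 138 in daytime subsidiary cells and 185, 115, 38.4 and 104 in night-time subsidiary cells. By night the groups did not overlap, while by day guard replicate 2 lay within the subsidiary range. Its fold change of 1.77 ± 0.44 passed narrowly (adjusted p = 0.0394) and did not pass in 12 of the 16 fits with 1 library left out, at adjusted p of 0.0515 to 0.0868. The 4 fits in which it stayed called left out replicate 2 of daytime guard cells, replicate 2 of night-time guard cells, replicate 3 of daytime subsidiary cells or replicate 1 of night-time subsidiary cells. It did not pass without both libraries that stood apart (adjusted p = 0.0844).

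Among the lower genes, the Cellulose gene Zm00001d034770, whose word opens the names of cellulose synthases and related proteins, had 1109, 1031, 607 and 490.3 normalised counts in daytime guard cells and 857, 1117, 1044 and 685 in night-time guard cells. The subsidiary cell values were 2739, 2222, 2071 and 3213 by day and 1272, 953, 1230.0 and 1259.8 by night. By day every guard cell library lay below every subsidiary cell library. By night the groups overlapped, with a fold change of -0.36 ± 0.32 (limma adjusted p = 0.823). The averaged fold change was -1.04 ± 0.23 (adjusted p = 0.0167), called without any 1 of the 16 libraries.

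The Xyloglucan gene Zm00001d024379, whose word names hemicellulose-modifying enzymes, had 34.7, 34.2, 105 and 69.0 normalised counts in daytime guard cells and 99.1, 71.3, 108 and 60.9 in night-time guard cells. In subsidiary cells it had 263, 115, 137 and 123 by day and 341, 336, 373 and 182 by night. All 8 guard cell libraries lay below all 8 subsidiary cell libraries, and it was the 1 wall gene of 168 for which the 8 and 8 libraries did not overlap, against 0.363% of all genes tested. Its fold change was -1.64 ± 0.38 (adjusted p = 0.0226). The call was lost without subsidiary night replicate 1, 2 or 3, at adjusted p of 0.0527 to 0.0568, and without both libraries that stood apart (adjusted p = 0.0520).

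**Figure D2:**
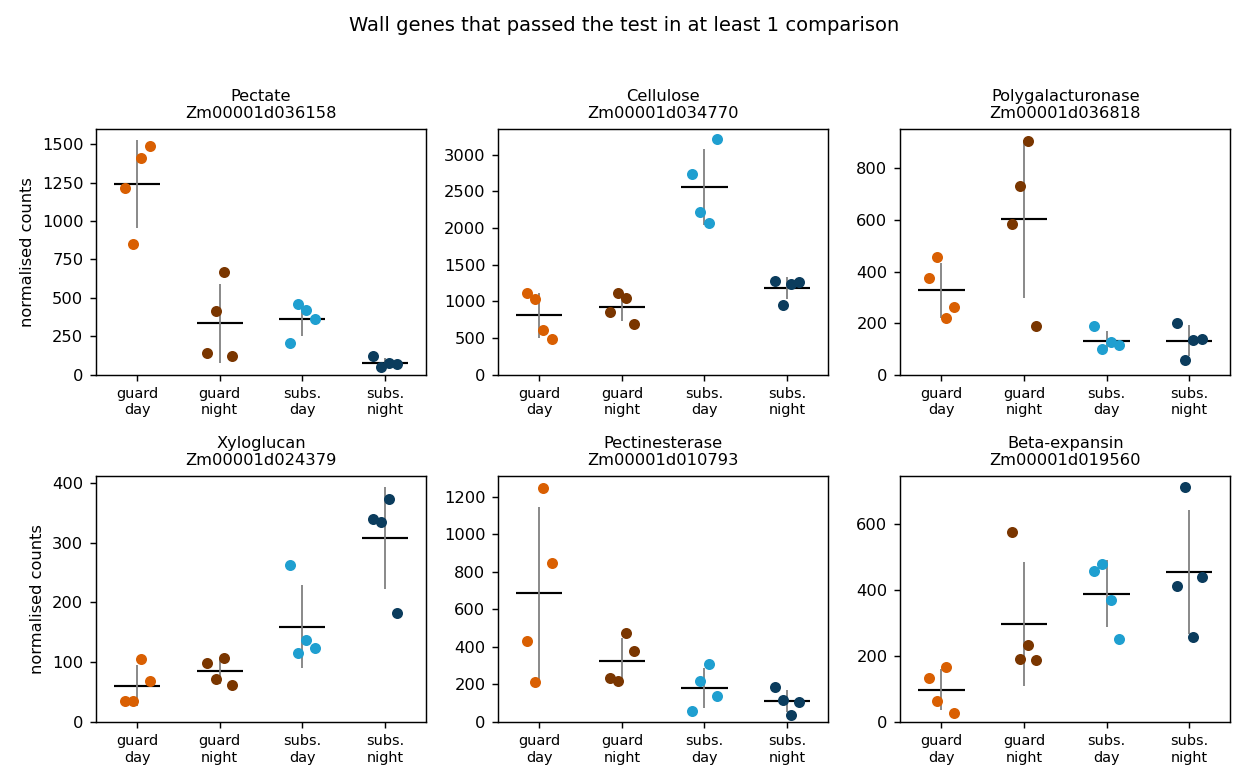
Normalised counts (y axis, linear) of the 6 wall genes called in at least 1 comparison, in daytime guard cells, night-time guard cells, daytime subsidiary cells and night-time subsidiary cells. Each point is 1 library, the bar is the mean and the line the SD of 4 libraries; the Xyloglucan gene is the one whose guard cell points, at most 108, all lie below its subsidiary cell points, at least 115.

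By day alone, 2 wall genes were lower and 0 higher in guard cells than in subsidiary cells, which is 1.19% of the 168 against 1.34% of all genes tested (0.395% lower and 0.943% higher). At an unadjusted p under 0.05 the count was 17 of 168 (10.1%), against 12.4% of all genes. The Cellulose gene Zm00001d034770 was lower, with a fold change of -1.72 ± 0.32 (adjusted p = 0.00935) that stayed called under every alternative tried. The other was the beta-expansin Zm00001d019560, a wall-loosening protein. It had 133, 63.0, 165 and 28 normalised counts in daytime guard cells, against 458, 479, 369.6 and 253 in daytime subsidiary cells, with no overlap. By night it had 577, 189, 235 and 186 in guard cells and 411, 712, 256 and 441 in subsidiary cells, with overlap. Its day fold change was -2.24 ± 0.55 (adjusted p = 0.0489). That call was narrow: in 13 of the 16 fits with 1 library left out it did not pass, at adjusted p of 0.0518 to 0.138, and it stayed called only without guard day replicate 3, guard night replicate 1 or guard night replicate 4. It also did not pass in edgeR (adjusted p = 0.107) or without both libraries that stood apart (adjusted p = 0.0816).

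By night, limma called 0 of the 168 wall genes between guard and subsidiary cells, against 0.0291% of all genes tested (0.0185% higher and 0.0106% lower). At an unadjusted p under 0.05 there were 18 of 168, or 10.7%, against 8.57% of all genes, edgeR on the whole reads called 0, and DESeq2 on them called 3, against 1.62% of all genes. The Polygalacturonase gene Zm00001d036818 had a fold change of 2.10 ± 0.52 (adjusted p = 0.143), which became 2.59 and passed (adjusted p = 0.0214) without guard night replicate 4. The groups did not overlap for 5 genes higher and 5 lower in daytime guard cells and for 3 higher and 7 lower by night. These counts, 5.95% of the 168 genes at each time, compare with 7.8% of all genes by day and 5.81% by night.

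The second comparison asked how the wall genes differ between day and night. Averaged over the cell types, 1 of the 168 wall genes was higher by day and 0 lower, which is 0.595% of them against 2.62% of all genes tested (1.7% higher and 0.916% lower). At an unadjusted p under 0.05 there were 23 of 168 (13.7%) against 13.8% of all genes. The called gene was again the Pectate gene Zm00001d036158, and each of its 4 day libraries lay above all 4 night libraries of the same cell type, with 848 to 1486 normalised counts by day against 124 to 665 by night in guard cells and 205 to 461 by day against 52.7 to 118 by night in subsidiary cells. The averaged fold change, day minus night, was 2.19 ± 0.36 (adjusted p = 0.00126). It stayed called without any 1 library, at adjusted p of 0.000447 to 0.00434. The summed chlorophyll-binding and photosystem genes also lay higher by day without overlap in both cell types, and their part in this result was not tested.

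Within guard cells this Pectate gene was the 1 wall gene called (0.595% of the 168, against 0.866% of all genes tested, of which 0.747% were higher and 0.119% lower by day), and it was higher by day with a fold change of 2.20 ± 0.51 (adjusted p = 0.0448). The call did not pass in 12 of the 16 fits with 1 library left out, at adjusted p of 0.0518 to 0.134, and held only without guard night replicate 2 or 3, subsidiary day replicate 1 or subsidiary night replicate 2. It also did not pass in edgeR (adjusted p = 0.114) or without both libraries that stood apart (adjusted p = 0.0804). Within subsidiary cells it was likewise the 1 wall gene called, against 1.22% of all genes tested (0.673% higher and 0.548% lower), and higher by day with a fold change of 2.19 ± 0.51 (adjusted p = 0.0376). There it did not pass in 10 of the 16 such fits, at adjusted p of 0.0502 to 0.123, and held only without guard day replicate 2, any 1 of the 4 guard night libraries or subsidiary day replicate 1, and it did not pass in edgeR (adjusted p = 0.0511). Day and night libraries did not overlap for 8 wall genes higher and 3 lower by day in guard cells (6.55%, against 5.71% of all genes) and for 7 higher and 2 lower in subsidiary cells (5.36%, against 8.84% of all genes). Over both cell types, 0 of the 168 had all 8 day libraries apart from all 8 night libraries, against 0.609% of all genes.

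The third question was whether the day and night difference depends on the cell type, tested as the interaction. limma called 0 of the 168 wall genes and 0% of all genes tested. At an unadjusted p under 0.05 it counted 6 wall genes (3.57%) against 6.71% of all genes, edgeR called 0 of the 168, and DESeq2 also called 0, against 0.395% of all genes. The smallest unadjusted p among the wall genes was that of the Cellulose gene Zm00001d034770, with an interaction of -1.36 ± 0.45 (limma adjusted p = 0.577). For the Pectate gene the interaction was 0.02 ± 0.72 with a 95% interval of -1.48 to 1.51 and an adjusted p of 0.998. The width of that interval leaves room for a sizeable difference in either direction, and the sign turned under several alternatives.

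**Figure D3:**
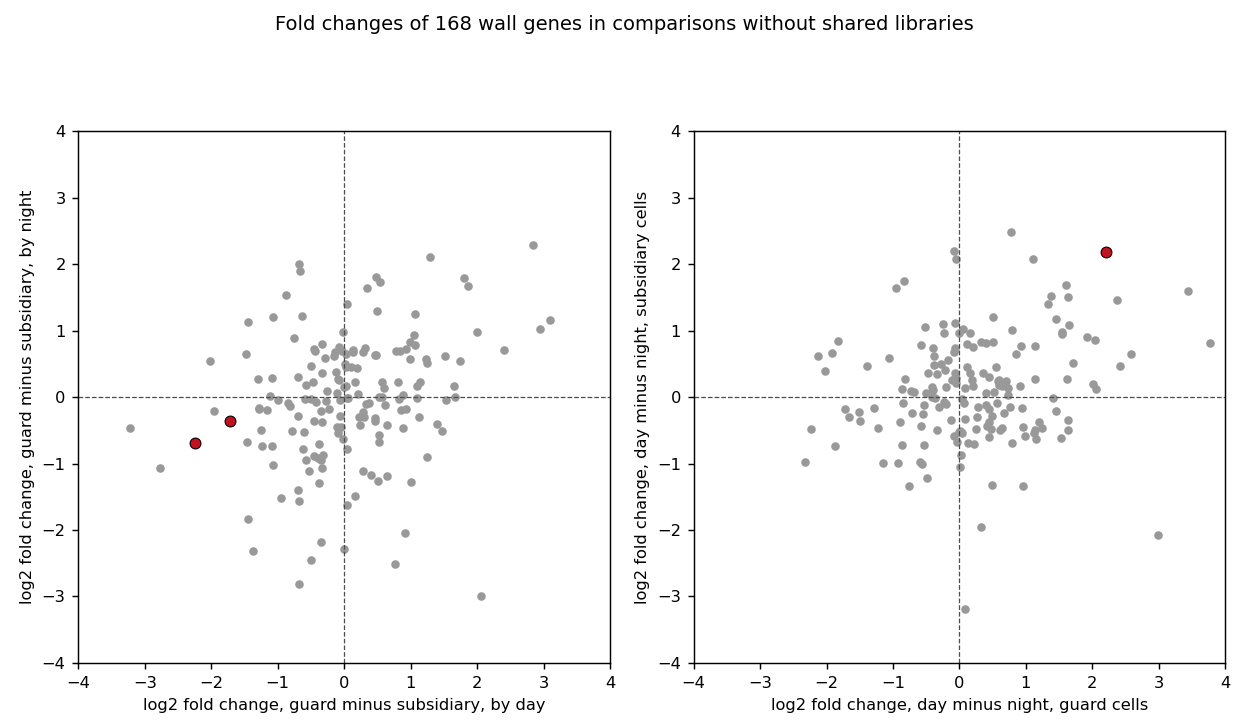
Log2 fold changes of the 168 wall genes. Left, guard minus subsidiary cells in the daytime (x axis) and by night (y axis); right, day minus night in guard cells (x axis) and in subsidiary cells (y axis). Each point is 1 gene, red points were called in a plotted comparison, and the spread is wide in both plots, with 101 genes of the same sign on the left and 86 on the right.

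Across the 168 genes the guard minus subsidiary fold changes by day and by night, which share no library, had a Pearson r of 0.247 and a Spearman rho of 0.253, with the same sign in 101 genes (60.1%). The day minus night fold changes in guard cells and in subsidiary cells had r of 0.199 and rho of 0.176, with the same sign in 86 genes (51.2%). These correlations are across genes, which are not independent replicates, and are given as a description.

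Of the description classes, those of expansins had the widest spread between replicate libraries. The median SD of log2 values within groups was 1.38 for alpha-expansins, 1.5 for beta-expansins and 2.08 for the other expansins, against 0.993 over all 168 wall genes and 1.04 over all genes tested. Median gene means were 312, 59.0 and 20.6 normalised counts in the same order, against 165 over the 168 wall genes. Only 4 of the 10 beta-expansins and 0 of the 3 other expansins reached 10 in every library. The part of count level in this spread was not tested. Of the 16 expansins 1 was called, the beta-expansin Zm00001d019560 described above, in guard minus subsidiary cells in the daytime. The alpha-expansin Zm00001d043047 had 715, 163, 551 and 1816 normalised counts in daytime guard cells and 109, 41.2, 32.4 and 20.6 in night-time guard cells, with no overlap. The subsidiary cell values were 13.6, 1049, 707 and 859 by day and 50.6, 145, 139 and 927 by night, where replicate 1 by day and replicate 4 by night went against the other libraries of their groups. Its day minus night fold change in guard cells, 3.78 ± 1.14, was the largest of the 168 in size but did not pass in limma (adjusted p = 0.169), while DESeq2 called it (adjusted p = 0.00195). Without subsidiary day replicate 1, limma called it too (adjusted p = 0.0241). That library enters this comparison only through the shared estimate of spread. Averaged over cell types, the fold change was 2.29 ± 0.81 in all 16 libraries and did not pass (limma adjusted p = 0.174). Without subsidiary day replicate 1 it was 3.03 and passed (adjusted p = 0.00628), while 15 of the 16 fits with 1 library left out did not pass.

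The other 2 alpha-expansins did not pass in any comparison. Zm00001d025018 had 178, 193, 738 and 1063 normalised counts in daytime guard cells and 289, 107, 382 and 24.9 in night-time guard cells, against 68.0, 230.5, 278 and 533 in daytime subsidiary cells and 91.0, 399, 325 and 91.0 in night-time subsidiary cells. Its groups overlap, and the guard cell day minus night fold change was 1.62 ± 0.85 (adjusted p = 0.556), or 0.83 without guard night replicate 4. Zm00001d002548 ran from 11 to 77.8 in daytime guard cells and from 33.7 to 618 in night-time guard cells. Its day minus night fold change was -1.88 in guard cells and -1.31 averaged over cell types, each at an unadjusted limma p under 0.05. That is opposite in sign to the other 2 alpha-expansins. The beta-expansin of highest mean, Zm00001d004586, had 509, 667, 203 and 377 in daytime guard cells and 409, 207, 365 and 60.9 in night-time guard cells, against 198, 233, 974 and 42.3 in daytime subsidiary cells and 75.4, 290.1, 681 and 207 in night-time subsidiary cells. Single libraries set its extremes, and no comparison passed. The expansin Zm00001d029783 had 257, 189, 86.8 and 90.0 in daytime guard cells and 0, 232, 241 and 7.72 in night-time guard cells, against 114, 326, 435 and 95.3 in daytime subsidiary cells and 74.7, 192, 250.2 and 119 in night-time subsidiary cells. Its guard minus subsidiary fold change by night was -2.45 ± 1.26 (adjusted p = 0.632) and 2 of the 4 guard night libraries were at or near 0. Without guard night replicate 1, the library at 0, it was -0.88 (adjusted p = 0.889).

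**Figure D4:**
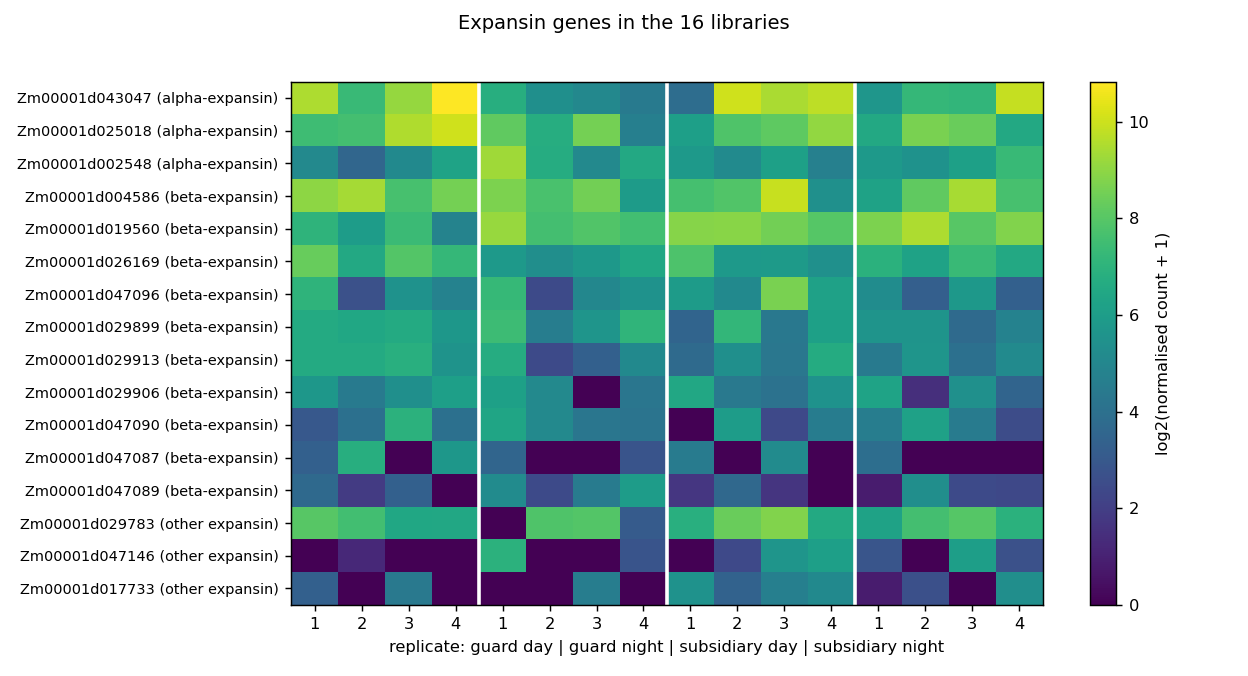
Log2(normalised count + 1) of the 16 expansins (rows) in the 16 libraries (columns, replicates 1 to 4 of daytime guard cells, night-time guard cells, daytime subsidiary cells and night-time subsidiary cells), with white lines between groups. Brighter cells are higher. The alpha-expansin in the top row is brighter in each guard day library, at 163 to 1816 normalised counts, than in any guard night library, at 20.6 to 109.

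Cellulose genes were the least variable of the classes, with a median SD of 0.626 within groups, and had the highest median gene mean, 643 normalised counts. Their summed normalised counts were 10490 ± 1626 in daytime guard cells (SD, n = 4), 9978 ± 687 in night-time guard cells, 12696 ± 1802 in daytime subsidiary cells and 10127 ± 813 in night-time subsidiary cells. Of the 15, 1 was called, Zm00001d034770, and the averaged guard minus subsidiary fold changes ran from -1.04 to 0.37 with a median of -0.05. The Cellulose gene of highest mean, Zm00001d039660, had 2619, 2950.1, 2034 and 2284 in daytime guard cells, 1108, 2429, 2099 and 1068 in night-time guard cells, 1274, 1587, 1438 and 2312 in daytime subsidiary cells and 1385, 1987, 1057 and 1448 in night-time subsidiary cells. It was highest on average in daytime guard cells, and no comparison passed. Its smallest unadjusted p was for day minus night in guard cells, at 0.64 ± 0.34 (adjusted p = 0.552).

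Of the 32 Xyloglucan genes 1 was called, Zm00001d024379, and 15 of 32 averaged guard minus subsidiary fold changes were positive (median -0.09, range -1.85 to 1.99). The gene at the top of that range, Zm00001d052651, was chosen after its values were seen. It had 919, 957, 1651 and 897 normalised counts in daytime guard cells, against 386, 86.3, 240.3 and 43.7 in daytime subsidiary cells, and 260.0, 533, 190.5 and 36.9 in night-time guard cells, against 41.2, 274, 54.9 and 90.3 in night-time subsidiary cells. By day its groups did not overlap, with a fold change of 2.95 ± 0.78 that did not pass in limma (adjusted p = 0.0685) and passed in DESeq2 (adjusted p = 0.0203). Averaged over day and night it was 1.99 ± 0.55 (adjusted p = 0.0657), and it passed without guard night replicate 4 (adjusted p = 0.0107), subsidiary day replicate 1 (adjusted p = 0.0348) or subsidiary night replicate 2 (adjusted p = 0.0410). The Xyloglucan gene Zm00001d026250 had 1067, 1123, 698 and 648 in daytime guard cells and 816, 978, 964 and 84.9 in night-time guard cells, against 238, 427, 804 and 282 in daytime subsidiary cells and 513, 269, 363 and 705 in night-time subsidiary cells. By day only subsidiary replicate 3 lay within the guard cell range, and by night only guard replicate 4 lay below the other guard libraries and all subsidiary libraries. The fold change by day was 1.14 ± 0.63 (adjusted p = 0.497).

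None of the 22 Endoglucanase genes, whose word names enzymes that cut glucan chains, was called in limma. An unadjusted p under 0.05 was reached by 3 (13.6%) in the averaged guard minus subsidiary comparison, against 13.4% of all genes tested. In the averaged day minus night comparison it was reached by 4 (18.2%), against 13.8% of all genes tested. DESeq2 called 2 of the 22 (9.09%) in at least 1 of the 7 comparisons, against 12.6% of all genes. Zm00001d013319 came closest in its averaged day minus night difference, 1.59 ± 0.48 (adjusted p = 0.101). It had 776, 990.2, 523 and 465 normalised counts by day and 1433, 134, 178 and 255 by night in guard cells, and 2906, 405, 948 and 673 by day and 171, 165, 571 and 147 by night in subsidiary cells. Guard night replicate 1 was the highest of its cell type, and without it the fold change was 1.96 and passed (adjusted p = 0.0132). The Endoglucanase gene of highest mean, Zm00001d017949, had 1476, 2117, 1744 and 889 by day and 1646, 1205, 1494 and 183 by night in guard cells, and 1657, 1534, 2842 and 1422 by day and 1007, 667, 760.1 and 1239 by night in subsidiary cells. In subsidiary cells the day libraries all lay above the night libraries, and the averaged day minus night fold change was 0.90 ± 0.38 (adjusted p = 0.287), or 0.53 (adjusted p = 0.311) without guard night replicate 4.

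Limma called 6 of the 168 wall genes (3.57%) in at least 1 of the 7 comparisons, against 5.16% of all genes tested, and 3 of the 6 carry pectin-related words, as do 83 of the 168 (49.4%). Of the 49 Pectinesterase genes 1 was called, of the 12 Pectate genes 1, of the 6 Polygalacturonase genes 1, and of the 16 with another Pectin word none in limma and 3 (18.8%) in DESeq2. In guard cells 35 of the 49 Pectinesterase genes had a positive day minus night fold change (median 0.40), and without guard night replicate 4 there were 30 of 49 (median 0.14). Over all 168 genes the same median was 0.13 with 97 positive, and 0.02 with 87 positive without that library, while the median over all genes tested was -0.01. Among the other Pectin words, Zm00001d020316 had 957, 819, 675 and 909.8 normalised counts in daytime guard cells and 1214, 1212, 949.9 and 324 in night-time guard cells, against 842, 1104, 2595 and 1324 in daytime subsidiary cells and 2623, 4019, 1256 and 2679 in night-time subsidiary cells. Guard cells lay below night-time subsidiary cells without overlap, and the averaged fold change of -1.13 ± 0.32 missed the threshold (adjusted p = 0.0728). It passed without subsidiary night replicate 3 (adjusted p = 0.0438).

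Zm00001d041950, also with a Pectin word, had 376, 259, 112 and 443 normalised counts by day and 236, 359, 181 and 309.7 by night in guard cells, and 113, 465, 95.9 and 161 by day and 337, 429.9, 336 and 317 by night in subsidiary cells. Its smallest p was for day minus night in subsidiary cells, at -1.05 ± 0.52 (adjusted p = 0.460). The Pectate gene of highest mean, Zm00001d015328, had 464, 818, 804 and 385 by day and 48.8, 538, 610.4 and 99.5 by night in guard cells, and 502, 2330.1, 784 and 1805 by day and 588, 231, 689.5 and 1160.0 by night in subsidiary cells. Day and night libraries overlap in both cell types, with an averaged fold change of 1.26 ± 0.51 (adjusted p = 0.254). The Polygalacturonase gene Zm00001d011444 lay between 149 and 927 in every library, with no comparison passing.

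**Figure D5:**
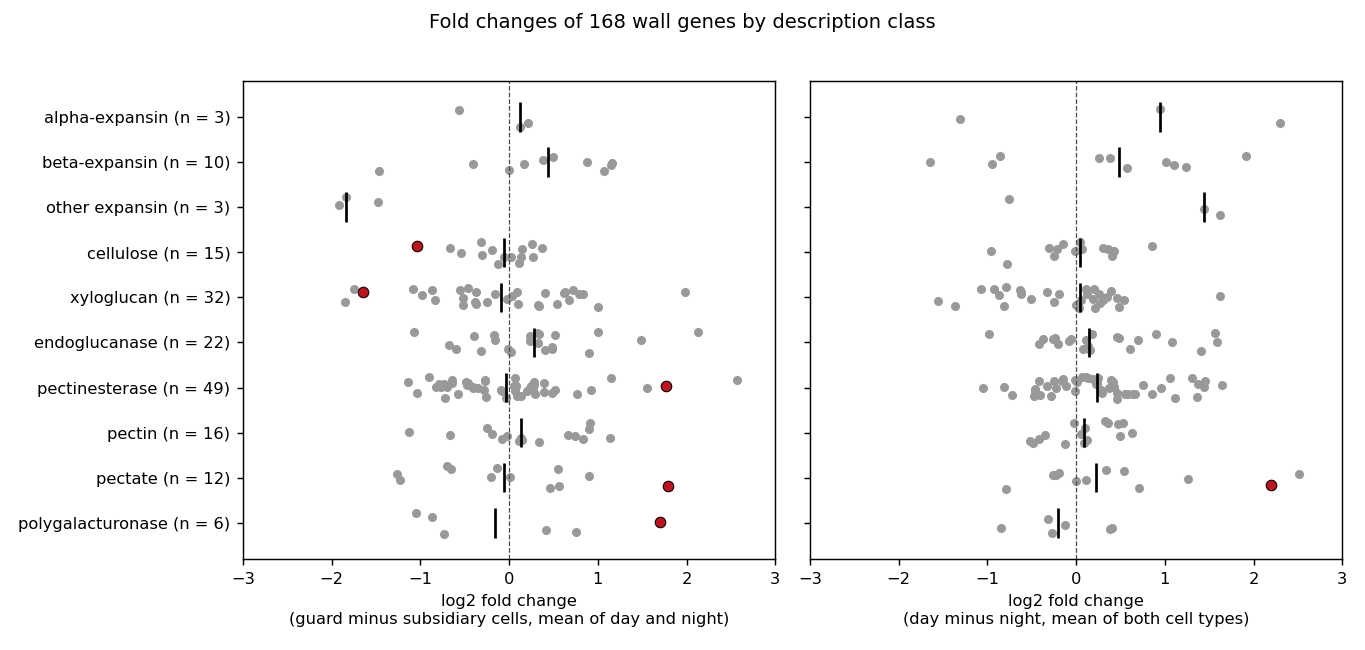
Log2 fold changes of the 168 wall genes by class of description word (rows), for guard minus subsidiary cells averaged over day and night (left) and day minus night averaged over cell types (right). Each point is 1 gene, black bars are class medians and red points were called; most class medians lie near 0, and the 5 called genes on the left come from 5 different classes.

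DESeq2 on the whole reads behind the normalised counts called more wall genes than limma, as it did over all genes. It called 9 for guard minus subsidiary cells in the daytime, against 4.34% of all genes tested, and 11 averaged over day and night, against 5.5%. For day minus night it called 6 in guard cells, against 2.9%, 4 in subsidiary cells, against 3.53%, and 7 averaged over cell types, against 5.74%. In all 23 wall genes (13.7%) were called by DESeq2 in at least 1 of the 7 comparisons, against 12.6% of all genes, 17 of them in no limma comparison. These 17 genes, named after their values were seen, include some in which 1 library sets the difference in guard cells. The Pectinesterase gene Zm00001d024308 had 433, 4068, 116 and 258 normalised counts in daytime guard cells against 187, 126, 248 and 196 by night, and without guard day replicate 2 its limma fold change of 1.38 in guard cells was 0.35. In subsidiary cells the same gene ran from 503 to 675 by day against 119 to 485 by night, with no overlap. Its averaged day minus night fold change was 1.45 ± 0.52 (limma adjusted p = 0.190, DESeq2 adjusted p = 0.00671), or 0.93 in limma without guard day replicate 2. Zm00001d007209, also Pectinesterase, had 20.8, 0, 33.5 and 834 in daytime guard cells against 3.81, 1.11, 0 and 14.6 by night, and its limma fold change of 2.99 in guard cells was 1.36 without guard day replicate 4 and 4.59 without guard day replicate 2. Day and night libraries of subsidiary cells also did not overlap for the following genes. The Pectinesterase gene Zm00001d022104 had 338, 244, 123 and 230.2 in daytime subsidiary cells against 67.7, 49.2, 84.6 and 73.9 by night. In guard cells it had 125, 386, 127 and 69.0 by day against 91.5, 25.6, 14.3 and 134 by night, with overlap. Its averaged day minus night fold change was 1.65 ± 0.50 in limma (adjusted p = 0.102) with a DESeq2 adjusted p of 0.0231. The Xyloglucan gene Zm00001d017699 had 17, 295, 335 and 127 in daytime subsidiary cells against 663, 1383, 2736 and 635 by night, and in that cell type the fold change was -3.19 ± 0.87 (limma adjusted p = 0.0926, DESeq2 adjusted p = 0.00935). It passed in limma without guard night replicate 4 (adjusted p = 0.0254).

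The authors' deposited table gives its own comparisons in the opposite direction, subsidiary over guard and night over day, with log2 fold changes drawn toward 0. In the authors' deposited table, adjusted p-values under 0.05 were given to 9 wall genes between the cell types by day, against 4.35% of all genes tested, and to 3 by night, against 1.61%. Between night and day the authors' deposited table gives them to 6 wall genes in guard cells, against 2.9% of all genes tested, and to 4 in subsidiary cells, against 3.54%. For the Pectate gene Zm00001d036158 the authors' deposited table lists a night over day log2 fold change of -1.60 in guard cells (adjusted p = 0.0142) and -1.95 in subsidiary cells (adjusted p = 0.00175). For the Cellulose gene Zm00001d034770 the authors' deposited table lists a subsidiary over guard log2 fold change by day of 1.55 (adjusted p = 7.48e-05).

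Other wall genes, 58 genes with 12 further description words such as Laccase, Extensin and Fasciclin-like, gave 2 limma calls over the 7 comparisons, 1 of 58 (1.72%) in each of the averaged comparisons, against 2.4% of all genes for guard minus subsidiary cells and 2.62% for day minus night. A Beta-galactosidase gene, Zm00001d041880, was higher in guard cells averaged over day and night (1.08 ± 0.28, adjusted p = 0.0476). A Cinnamyl gene, Zm00001d015618, whose word names enzymes of lignin synthesis, was higher by day averaged over cell types (1.71 ± 0.45, adjusted p = 0.0481).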

How the data were processed

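Guard cells and subsidiary cells of maize B104, by day and by night, were profiled by RNA-seq in 16 libraries, 4 per group. Per the labels' protocols, RNA was amplified with SMART-Seq v4 and made into Nextera XT libraries, which keep no strand and add no molecular identifiers, so overlapping genes can share reads, and reads are not independent molecules. The authors deposited 1 table. Per the file headers it holds normalized counts (signal), reads per gene after the authors' scaling of each library by a size factor. They were whole multiples of 1 step in 100% of checked values within 0.01, so whole reads could be recovered. The authors' deposited log2 fold change is given as a score and their adjusted p-value comes from DESeq2 1.40.2 with build B73 RefGen v4, per the submitters' processing notes. Which aligner and counter were used is not given in the sources used here. In 62 lines, 0 of them wall genes, the columns after the description are shifted, and their deposited comparisons were not used. Of the wall gene identifiers 0 were found in the available reference annotation, which is of another assembly, so no sequence or position is given.

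Values were taken as log2 after adding 1, and the 4 group means were fitted over 16 libraries with limma-trend, for 37759 genes with at least 10 normalized counts in at least 4 libraries. P-values were Benjamini-Hochberg adjusted over all genes tested, called under 0.05, for 7 contrasts: guard minus subsidiary cells and day minus night, each within groups and averaged, and the interaction. Scripts were tested on simulated data. The fits used limma 3.58.1, DESeq2 1.42.0 and edgeR 4.0.16 in R 4.3.3. Alternatives were a pseudocount of 10, no filter, upper-quartile scaling, edgeR and DESeq2 on recovered reads, the replicate number as a block, only the groups compared, and leaving out libraries. The spread behind the p-values is that between collections, with their dissection and library making. Subsidiary night samples have titles with a word close to day, and were taken as night from the treatment label and the library name.

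Named genes were every wall gene called in any contrast and, for each class of description word, the 2 of highest mean and the 1 of smallest unadjusted p. Others are said to be chosen after their values were seen, and Zm00001d002548 was added to complete the alpha-expansins. Members, lists and alternatives were chosen with earlier results of these data known.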

Additional observations from a re-analysis of the deposited data

Results flagged for a closer look

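In groups of 4 libraries, the value of 1 library stood farther from the other 3 than Dixon's 95% limit allows in 11 of 136 sets examined, each a named wall gene or a class total in 1 group. The check was made on log2(normalised count + 1). Chance flags about 1 in 20 sets of independent normal values. Class totals contain named genes, so the sets here are not independent and that rate is only a rough guide. The Cellulose gene Zm00001d034770 had 953 normalised counts in subsidiary night replicate 2, against 1230.0 to 1272 in the other 3 libraries of its group. The Xyloglucan gene Zm00001d024379 had 182 in subsidiary night replicate 4, against 336 to 373. The Pectinesterase gene Zm00001d009899 had 125611 in guard day replicate 2, against 63754 to 69179. The Pectinesterase gene Zm00001d029441 had 1090.2 in subsidiary night replicate 4, against 2286 to 2603.

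Guard night replicate 4 was the low library for the Endoglucanase gene Zm00001d017949, at 183 against 1205 to 1646, and for the Xyloglucan gene Zm00001d026250, at 84.9 against 816 to 978. The Endoglucanase gene Zm00001d013319 had 571 in subsidiary night replicate 3, against 147 to 171. Subsidiary day replicate 1 was low for the alpha-expansin Zm00001d043047, at 13.6 against 707 to 1049, and for the total of the 3 alpha-expansins, at 138 against 1055 to 1417. The expansin Zm00001d047146 had 1.37 in guard day replicate 2 and 0 in the other 3 libraries, a set in which any value above 0 is flagged. The 12 Pectate genes summed to 9084 in guard day replicate 3, against 3039 to 3327 in the other guard day libraries.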

How the results depend on the processing

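Counts of wall genes called were most sensitive to the test, and counts over all genes tested moved with it too. For guard minus subsidiary cells in the day limma called 2, edgeR 1 and DESeq2 9, against 505, 343 and 1639 of all 37759 genes tested. By night limma called 0 and DESeq2 3, against 11 and 610 of all genes. There limma called 1 without guard night replicate 4 and subsidiary day replicate 1. Averaged over both times limma called 5 and DESeq2 11, against 907 and 2076 of all genes. For day minus night in guard cells limma called 1 and DESeq2 6, against 327 and 1095 of all genes. With upper-quartile scaling, edgeR and only the groups compared 0 were called, against 279, 196 and 203 of all genes. Without both libraries 0 were called too. In subsidiary cells limma called 1, edgeR 0 and DESeq2 4, against 461, 317 and 1334 of all genes, and limma called 2 without both libraries. Averaged over cell types limma called 1 and DESeq2 7, against 988 and 2168 of all genes, and limma called 3 without both libraries. The cause of these differences was not tested. For fits with libraries left out, counts over all genes are not given here. With 1 library left out, wall gene counts ranged from 1 to 3 and 0 to 1 for guard minus subsidiary cells in the day and in the night, and from 4 to 6 averaged. They ranged from 0 to 2 for day minus night in each cell type, 1 to 3 averaged, and stayed at 0 for the interaction. The interaction of the Pectate gene Zm00001d036158 was 0.02 and turned to -0.13 with upper-quartile scaling, -0.29 in edgeR, -0.31 in DESeq2, -0.59 without both libraries, and ranged from -0.34 to 0.46 with 1 library left out, below 0 in 6 of 16 fits (-0.34 to -0.06), each without a call. The labels do not say that replicate numbers pair libraries, and deviations of same-numbered libraries correlated at -0.061 to 0.079, with 1 or 2 of 4 libraries closest to their own number. With the replicate block, wall gene counts for day minus night were 0 in each cell type and 1 averaged. Those for guard minus subsidiary cells were 2 by day, 0 by night and 4 averaged, where the Pectinesterase gene Zm00001d010793 was the one lost (adjusted p = 0.0600). Over all genes tested the block gave 305 in guard cells, 386 in subsidiary cells and 888 averaged for day minus night. For guard minus subsidiary cells it gave 465 by day, 10 by night and 817 averaged.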

Other observations

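A pattern across libraries was noticed after the values were seen and is given as a description. For 7 of the 168 wall genes (4.17%), and for 0.331% of all genes tested, the 3 highest libraries were guard day replicate 3, subsidiary day replicate 3 and subsidiary night replicate 2, which come from 3 different groups. The 7 are 3 of the 12 Pectate genes (25.0%), 3 of the 49 Pectinesterase genes (6.12%) and 1 of the 32 Xyloglucan genes. The Pectate gene Zm00001d004448 had 1949 normalised counts in guard day replicate 3, 873 in subsidiary day replicate 3 and 888 in subsidiary night replicate 2, and 5.66 to 160.4 in the other 13 libraries. The Pectate gene Zm00001d025067 had 2051, 843 and 927 in the same order, and 6.85 to 646 elsewhere, and Zm00001d012595 had 389.6, 203 and 323, and 13.2 to 154 elsewhere. None of these 3 Pectate genes was called between groups in limma. In others of the 7 the margin was narrow. For the Pectinesterase gene Zm00001d020586 the lowest of the 3 libraries held 192.9, against at most 189.6 elsewhere. For the Xyloglucan gene Zm00001d029814 it held 322, against at most 276 elsewhere.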
